A study of Mus musculus with 6 samples.

Results

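The genes described here are 42 mouse genes of the NRF2 and glutathione system, a given list that covers the transcription factor NRF2 (Nfe2l2) and its inhibitor KEAP1, enzymes that make, reduce and use glutathione, the thioredoxin and peroxiredoxin enzymes, the suppliers of NADPH, the superoxide dismutases, catalase and 1 glutathione conjugate exporter. They were found in the count tables by their Entrez identifiers, and all 42 had a row among the 27179 genes counted. Of these, 35 averaged 100 or more normalized counts across the 6 libraries and were among the 11934 genes tested. The other 7 (Gsta1, Gsta2, Gsta3, Gstt2, Mgst1, Mgst2 and Gpx3) fell below that limit and are described by their reads. The rule that selects the genes uses no measured level, but the list was chosen with earlier results of these data known.

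The data are RNA-seq read counts from 3 immortalized mouse embryonic fibroblast (MEF) lines of C57BL/6 origin, grown in serum-containing medium, with 2 libraries per line from independent RNA preparations. Cry/Per_KO cells lack Cry1, Cry2, Per1 and Per2, which encode the repressor proteins of the circadian clock. Per/Nr1d_KO cells lack Per1, Per2, Nr1d1 and Nr1d2 and keep Cry1 and Cry2. NR1D1 and NR1D2, also called REV-ERB alpha and beta, are nuclear receptors that repress transcription. Cry/Per/Nr1d_KO cells lack all 6 genes and are 1 clone, made from Cry/Per_KO cells with CRISPR guides against Nr1d1 and Nr1d2 and puromycin selection. All 3 lines therefore lack Per1 and Per2, and no wild-type line was compared here. With 1 line per genotype, the genotype and the line or clone cannot be told apart. No treatment or time series was applied to the libraries used here.

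Library totals ran from 53764390 to 85927236 counts. The genotype labels and the deposited names of the count tables disagree: the pair that the genotype labels call Cry/Per_KO carries the name of the 6-gene knockout, and the pair labelled Cry/Per/Nr1d_KO carries the name of Cry/Per_KO. The groups below follow the genotype labels, so both pairs are written as "labelled". All 6 mutated clock genes were still transcribed in every library, at 1004 to 9337 normalized counts, so none was absent where its label says that it is mutated. Arntl and Cry1 are genes that NR1D proteins repress. Arntl had a mean of 1181 normalized counts in the Cry/Per/Nr1d_KO-labelled libraries, 2192 in the Cry/Per_KO-labelled ones and 2474 in Per/Nr1d_KO, and Cry1 had 1711, 5401 and 1564. Both were thus lower in the pair whose label lacks NR1D than in the pair whose label keeps it, by log2 fold changes of 0.89 ± 0.058 SE (Arntl) and 1.66 ± 0.053 (Cry1), which goes against the genotype labels and follows the names of the tables. Nr1d1 itself had a mean of 3152 normalized counts in the Cry/Per/Nr1d_KO-labelled libraries, 9293 in the Cry/Per_KO-labelled ones and 5098 in Per/Nr1d_KO. Per1 had 3064, 5719 and 2243 in the same order. The study reported Nr1d1, Nr1d2, Per1 and Per2 transcripts as lower in Cry/Per_KO than in Cry/Per/Nr1d_KO cells. By label they ran the other way, with Nr1d2 at 8135 against 5193 and Per2 at 6736 against 4932. Like Arntl and Cry1, they thus go against the genotype labels and follow the names of the tables. Read by the names of the tables, the first comparison below turns round, and the comparison of Per/Nr1d_KO with the Cry/Per_KO-labelled libraries becomes the one against the 6-gene knockout. Of the 12 fibroblast genes read, Col1a1, Col1a2, Fn1 and Vim were high in every library. The defining markers Thy1 and Lum were at 0 to 9.77 normalized counts and Dcn at 43.4 to 139. Col3a1 was at 836 and 801 in the Cry/Per/Nr1d_KO-labelled pair, 289 and 296 in the Cry/Per_KO-labelled pair and 42810 and 43797 in Per/Nr1d_KO. The fibroblast genes differed between the lines in both directions. Of the 9 tested, 4 (Col1a1, Col1a2, Col3a1 and Fn1) were called higher and 5 (Vim, Pdgfra, Pdgfrb, S100a4 and Postn) lower in Per/Nr1d_KO than in the Cry/Per/Nr1d_KO-labelled libraries, with log2 fold changes from -2.83 (S100a4) to 5.72 (Col3a1). The part of such line differences in the results below was not tested. The 3 hepatocyte markers, among them Alb, were at 7 reads or fewer. The 5 epithelial markers summed to at most 133 normalized counts per library and the 4 endothelial markers to at most 138. The 5 leukocyte and macrophage markers summed to at most 339.7, mostly from Cd68. Some of these low markers differed between the lines. Cd68 was called higher in Per/Nr1d_KO than in the Cry/Per/Nr1d_KO-labelled (log2 fold change 1.14) and Cry/Per_KO-labelled libraries (0.81). In the order Cry/Per/Nr1d_KO-labelled, Cry/Per_KO-labelled and Per/Nr1d_KO, Cdh1 averaged 17.9, 9.98 and 105 and Kdr 92.4, 21.2 and 73.7.

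NRF2 is held in the cytosol and marked for degradation by KEAP1. When oxidants or electrophiles modify KEAP1, NRF2 builds up, enters the nucleus and, with a small MAF protein, activates genes through the antioxidant response element (ARE). Much of this control acts on the NRF2 protein, so the Nfe2l2 transcript is not a measure of NRF2 activity. Glutathione is a tripeptide made in 2 steps, by glutamate-cysteine ligase (subunits GCLC and GCLM) and glutathione synthetase (GSS). It serves glutathione peroxidases in reducing peroxides and glutathione transferases in conjugating foreign compounds, and it is recycled by glutathione reductase (GSR) with NADPH.

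The ARE is the sequence through which NRF2 activates genes, so its occurrence in the promoters of the members was read. The RefSeq promoter table (build GRCm38.p6) was used. It holds the 250 bases before and the 50 bases after a start of transcription, for some genes at several starts. Of the 42 genes, 34 had an entry, with 43 promoters in all, and a gene was counted when any of its promoters held the letters. The letters TGACNNNGC, searched on both strands, were present in 12 of these 34 genes (35.3%), against 14.0% of the 27025 genes in the table. The 12 were Nfe2l2, Gclm, Txnrd1, Srxn1, Prdx1, G6pdx, Pgd, Me1, Gsta3, Gstm5, Mgst1 and Sod1. In Me1, Pgd and Srxn1 the match lay across or after the start, and these are not printed. The windows below are shown because they hold the ARE letters of NRF2's own gene, of both members that were called in a comparison and had a match, of 1 member with a large difference at low counts (Mgst1), and of a peroxiredoxin gene that was never called. All lie upstream of the annotated gene. Capitals mark the ARE letters, and each window runs 5′ to 3′ on the strand of its gene.
Nfe2l2 (- strand, chr2:75704879-75704913): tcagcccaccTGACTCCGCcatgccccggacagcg
Gclm (+ strand, chr3:122245407-122245447): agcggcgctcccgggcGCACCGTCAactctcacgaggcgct
Gstm5 (+ strand, chr3:107895796-107895836): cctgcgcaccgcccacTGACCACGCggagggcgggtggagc
Mgst1 (+ strand, chr6:138140455-138140495): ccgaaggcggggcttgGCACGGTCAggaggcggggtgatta
Prdx1 (+ strand, chr4:116685450-116685490): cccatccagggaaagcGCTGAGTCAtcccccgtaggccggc
The motifs began at positions -240 (Nfe2l2), -134 (Gclm), -42 (Gstm5), -56 (Mgst1) and -133 (Prdx1) relative to the start. Those of Gclm, Mgst1 and Prdx1 read on the opposite strand, so their capitals show the reverse complement. Of the 13 members called in a comparison 10 had an entry and 2 held the letters, against 8 of the 18 with an entry among the 22 tested and never called. Letters in a promoter are a description and do not show that NRF2 binds there.

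A pair of clock-related motifs was searched in the same windows. The E-box CACGTG, bound by CLOCK-BMAL1, was in 0 of the 34 genes against 8.09% of all genes. The letters TAGGTCA, the core of the element that NR1D proteins bind, were in 1 gene, Srxn1 (sulfiredoxin), against 2.97% of all genes. They began at -216 and again at 30, where the second match overlaps the ARE letters of that gene. The first is shown, with TAGGTCA in capitals.
Srxn1 (+ strand, chr2:152105292-152105330): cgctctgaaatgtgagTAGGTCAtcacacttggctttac

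Across the 35 members tested, the glutathione and antioxidant genes did not move as 1 block between the lines. Cry/Per_KO-labelled libraries had lower Gclm, Gss, Gstm2 and Gsto1 than the Cry/Per/Nr1d_KO-labelled ones, and higher Gsta4 and Gpx7. Per/Nr1d_KO libraries had lower Nqo1, Gclc, Gsta4, Gstt1 and Sod3 than the Cry/Per/Nr1d_KO-labelled ones, and higher Gstm5 and Gpx7. Against the Cry/Per_KO-labelled libraries, Per/Nr1d_KO libraries had higher Gclm, Gss, Gstm2, Gstm5 and Sod2 and lower Keap1, Gclc, Gsta4 and Sod3. These directions are by genotype label, against which Arntl and Cry1 go. In bulk RNA, fewer cells with a transcript and less transcript per cell cannot be told apart. A gene was called when its Benjamini-Hochberg adjusted p over all genes tested was below 0.05 and its log2 fold change lay beyond 0.81 in either direction, the fold limit that the study used.

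Of the 35 members tested, 6 were called in the first comparison (17.1%, against 16.8% of all genes tested), 2 higher and 4 lower in the Cry/Per_KO-labelled libraries, where 7.86% of all genes were higher and 8.95% lower. In Per/Nr1d_KO against the Cry/Per/Nr1d_KO-labelled libraries, 7 were called (20%, against 20.7% of all genes), 2 higher and 5 lower, beside 11.3% and 9.35% of all genes. In Per/Nr1d_KO against the Cry/Per_KO-labelled libraries, 9 were called (25.7%, against 29.0% of all genes), 5 higher and 4 lower, beside 15.2% and 13.8% of all genes. With every library kept, the members' share of calls was near that of all genes in each comparison. Without replicate 1 of the Cry/Per_KO-labelled libraries, Gss, Gsta4 and Gsto1 lay within the fold limit in the first comparison. The median log2 fold change of the members was -0.25, -0.12 and 0.03 in the 3 comparisons, beside 0.00, 0.01 and 0.03 for all genes tested. Without the fold limit 29, 31 and 30 members passed, beside 76.4%, 75.8% and 82.1% of all genes by the same rule. The spread between the 2 libraries of a line was small, with a common biological coefficient of variation of 0.0393. The median absolute difference between the 2 libraries of a line over the members was 0.074, 0.059 and 0.049 on the log2 scale for the lines labelled Cry/Per/Nr1d_KO and Cry/Per_KO and for Per/Nr1d_KO. The comparisons share libraries, so a line that is high or low in 1 gene enters 2 of the 3. In total 22 members were called in none, 5 in 1, 7 in 2 and 1, Gsta4, in all 3, beside 63.7%, 12%, 18.4% and 5.87% of all genes tested.

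**Figure D1:**
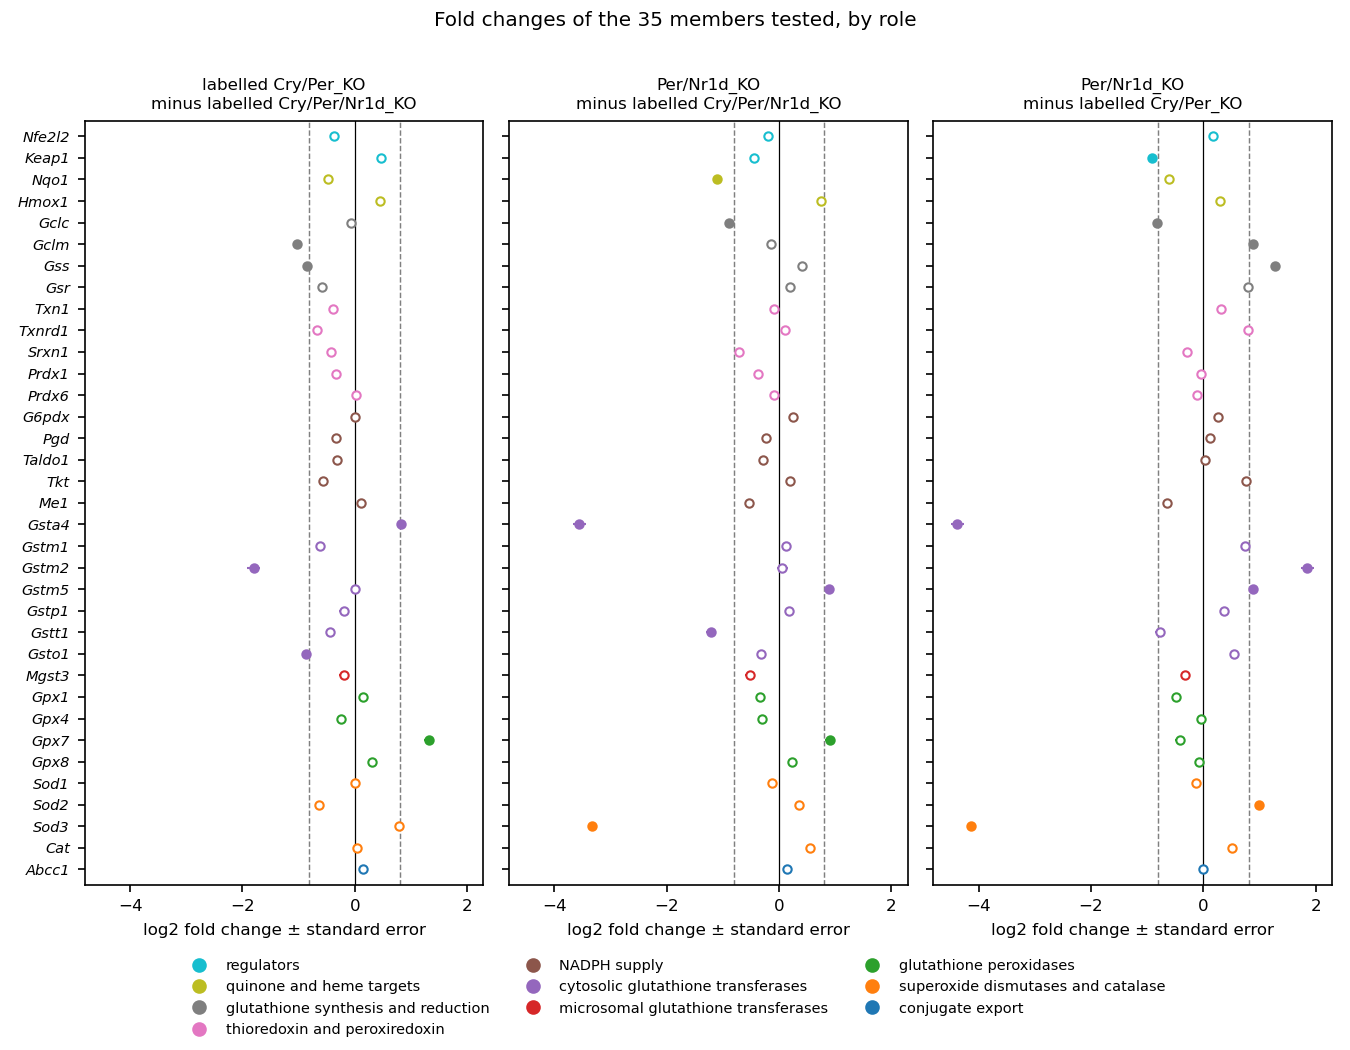
Log2 fold changes (horizontal axis, with the standard error as a bar, often within the symbol) of the 35 members tested in each of the 3 comparisons, ordered and coloured by role. Filled symbols passed the call rule and open symbols did not, and the dashed lines mark the fold limit. Gsta4 and Sod3 in the Per/Nr1d_KO comparisons lie farthest from 0, at -3.34 to -4.38.

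Among the regulators, Nfe2l2 (chr2:75675513-75704663, mm10) was within the fold limit in every comparison. It was at 11449 and 11991 normalized counts in the Cry/Per/Nr1d_KO-labelled pair, 9134 and 8919.6 in the Cry/Per_KO-labelled pair and 10459 and 9983 in Per/Nr1d_KO. The 3 pairs did not overlap, but the log2 fold changes were -0.38 ± 0.045 SE for Cry/Per_KO-labelled libraries against the Cry/Per/Nr1d_KO-labelled ones, -0.20 ± 0.045 for Per/Nr1d_KO against the latter, and 0.18 ± 0.045 for Per/Nr1d_KO against the former. Keap1 (chr9:21229730-21239332), the NRF2 inhibitor, was at 4244 and 4078 normalized counts in the Cry/Per/Nr1d_KO-labelled pair, 5588 and 5915 in the Cry/Per_KO-labelled pair and 3034 and 3054 in Per/Nr1d_KO. The Cry/Per_KO-labelled libraries were the highest and Per/Nr1d_KO the lowest, with no overlap between lines. Keap1 was 1.89-fold lower (log2 fold change -0.92 ± 0.050 SE, adjusted p = 1e-10, edgeR quasi-likelihood test) in Per/Nr1d_KO than in the Cry/Per_KO-labelled libraries, and its other fold changes (0.47 and -0.45) did not pass. Keap1 lies on chromosome 9, where the median of all 657 genes tested was -0.84 in that same comparison, and 10.9% of its exon bases overlap the antisense gene Gm16754.

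The classical NRF2 targets Nqo1 and Hmox1 differed in their pattern. Nqo1 (chr8:107388225-107403205) encodes a quinone reductase and was at 5384 and 5413 normalized counts in the Cry/Per/Nr1d_KO-labelled pair, 3811 and 3901 in the Cry/Per_KO-labelled pair and 2467 and 2566 in Per/Nr1d_KO. The lines kept this order with no overlap, and Per/Nr1d_KO was 2.14-fold lower (log2 fold change -1.10 ± 0.048 SE, adjusted p = 1.1e-11, edgeR quasi-likelihood test) than the Cry/Per/Nr1d_KO-labelled libraries. The difference from the Cry/Per_KO-labelled libraries, -0.61 ± 0.049, was within the fold limit. Hmox1, heme oxygenase 1, ran in the opposite order, with 5369.7 and 5063 normalized counts in the Cry/Per/Nr1d_KO-labelled pair, 7018 and 7225 in the Cry/Per_KO-labelled pair and 8796 and 8770.2 in Per/Nr1d_KO. Its highest difference, 0.75 ± 0.046 for Per/Nr1d_KO against the Cry/Per/Nr1d_KO-labelled libraries, stayed just inside the fold limit, so Hmox1 was not called.

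Of the 4 genes of glutathione synthesis and reduction, 2, 1 and 3 were called in the 3 comparisons, beside 16.8%, 20.7% and 29.0% of all genes. The subunits of glutamate-cysteine ligase differed in different lines. Gclc (chr9:77754535-77794489), the catalytic subunit, was at 6420.1 and 6929 normalized counts in the Cry/Per/Nr1d_KO-labelled pair, 6381 and 6363 in the Cry/Per_KO-labelled pair and 3633 and 3607 in Per/Nr1d_KO. Per/Nr1d_KO was low and the other pairs lay close together, the Cry/Per_KO-labelled libraries just below the Cry/Per/Nr1d_KO-labelled ones. Per/Nr1d_KO was 1.84-fold lower (log2 fold change -0.88 ± 0.049 SE, adjusted p = 2.2e-10, edgeR quasi-likelihood test) than the Cry/Per/Nr1d_KO-labelled libraries and 1.76-fold lower (-0.82 ± 0.049, adjusted p = 4.2e-10, edgeR) than the Cry/Per_KO-labelled ones. Gclm (chr3:122245487-122267215), the modifier subunit, was at 5249.9 and 5525 normalized counts in the Cry/Per/Nr1d_KO-labelled pair, 2587 and 2694 in the Cry/Per_KO-labelled pair and 4820.3 and 4913 in Per/Nr1d_KO. Here the Cry/Per_KO-labelled libraries were the low ones: they were 2.04-fold lower (log2 fold change -1.03 ± 0.050 SE, adjusted p = 9.2e-11, edgeR quasi-likelihood test) than the Cry/Per/Nr1d_KO-labelled ones, and Per/Nr1d_KO was 1.84-fold higher (0.88 ± 0.050, adjusted p = 1.9e-10, edgeR) than they were. Gss (chr2:155563181-155592810), which completes glutathione, was at 3966 and 3566 normalized counts in the Cry/Per/Nr1d_KO-labelled pair, 1958 and 2204 in the Cry/Per_KO-labelled pair and 4991 and 5072 in Per/Nr1d_KO. It was 1.81-fold lower (log2 fold change -0.86 ± 0.065 SE, adjusted p = 1.3e-08, edgeR quasi-likelihood test) in the Cry/Per_KO-labelled libraries than in the Cry/Per/Nr1d_KO-labelled ones and 2.42-fold higher (1.27 ± 0.064, adjusted p = 4.6e-11, edgeR) in Per/Nr1d_KO than in the Cry/Per_KO-labelled ones. Its call in the first of these was lost without replicate 1 of the Cry/Per/Nr1d_KO-labelled (-0.78) or of the Cry/Per_KO-labelled libraries (-0.77). Testing against the fold limit itself also ended it, as did subtracting the median of its chromosome (-0.66). Of the Gss exon bases, 15.4% overlap Acss2 on the other strand, and the strand setting of the counting is not given in the sources used here. Gsr, glutathione reductase, had the same order as Gss but was not called, with -0.59, 0.20 and 0.79 in the 3 comparisons, and passed in the last of these without replicate 2 of the Cry/Per_KO-labelled libraries (0.81).

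The calls of Gclc and Gclm in Per/Nr1d_KO against the Cry/Per_KO-labelled libraries were close to the typical shift of their chromosomes. All genes tested on chromosome 3 (577), where Gclm lies, had a median log2 fold change of 0.88 in that comparison, and those on chromosome 9 (657), where Gclc lies, of -0.84. Relative to these medians Gclm was at 0.00 and Gclc at 0.02. In Cry/Per_KO-labelled against Cry/Per/Nr1d_KO-labelled libraries the median of chromosome 3 was -0.65. Relative to it Gclm was at -0.38, within the fold limit. Against the Cry/Per/Nr1d_KO-labelled libraries the median of chromosome 9 was -0.46, and relative to it Gclc in Per/Nr1d_KO was at -0.42. Why these chromosomes were shifted was not tested.

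None of the 5 thioredoxin and peroxiredoxin genes was called in any comparison, by edgeR or by DESeq2, where either tool called 16.8%, 20.7% and 29.0% of all genes. An unadjusted p below 0.05, with no fold limit, was reached by 4, 3 and 4 of them in the 3 comparisons, beside 77.9%, 77.3% and 82.8% of all genes. They included the most abundant transcript of the list: per kilobase of exon, Txn1 (thioredoxin) had 26200 normalized counts in the Cry/Per/Nr1d_KO-labelled libraries, 19980 in the Cry/Per_KO-labelled ones and 24720 in Per/Nr1d_KO, above every other member. The nearest to a call was Txnrd1, thioredoxin reductase 1, at -0.67 ± 0.046 SE in Cry/Per_KO-labelled libraries against the Cry/Per/Nr1d_KO-labelled ones and 0.79 ± 0.046 in Per/Nr1d_KO against the Cry/Per_KO-labelled ones. The latter was called without replicate 2 of the Cry/Per_KO-labelled (0.82) or replicate 1 of the Per/Nr1d_KO libraries (0.82). Srxn1, which reactivates oxidized peroxiredoxins, was at -0.72 ± 0.051 in Per/Nr1d_KO against the Cry/Per/Nr1d_KO-labelled libraries. Prdx1 and Prdx6, which reduce peroxides, stayed between -0.37 and 0.03 in every comparison.

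The 5 genes grouped under NADPH supply, of the pentose phosphate pathway and malic enzyme, also had no call by either tool. The shares of all genes were the same as above. An unadjusted p below 0.05 was reached by 4, 5 and 4 (77.9%, 77.3% and 82.8% of all genes). G6pdx, the first enzyme of the pentose phosphate pathway, ranged from 0.00 to 0.26, and 16.9% of its 50-base stretches also occur in other genes, mostly Ikbkg. Pgd and Taldo1, of the same pathway, ranged from -0.34 to 0.11. Tkt, transketolase, was at 0.76 ± 0.048 in Per/Nr1d_KO against the Cry/Per_KO-labelled libraries, on chromosome 14, whose median was 0.62. Me1, malic enzyme 1, was at -0.65 ± 0.046 in the same comparison, on chromosome 9, and 28.3% of its 50-base stretches occur elsewhere, mostly in Gm7049.

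The cytosolic glutathione transferases, which conjugate glutathione to electrophiles, had 3 calls among 7 members tested in each comparison, in both directions, beside 16.8%, 20.7% and 29.0% of all genes. Gsta4 (chr9:78191966-78209349) encodes the alpha-class enzyme known for clearing 4-hydroxynonenal, a product of lipid peroxidation, and had the largest fold change among the members tested. It was at 708 and 749 normalized counts in the Cry/Per/Nr1d_KO-labelled pair, 1339 and 1237 in the Cry/Per_KO-labelled pair and 60.8 and 62.3 in Per/Nr1d_KO. The 2 Per/Nr1d_KO libraries lay far below all the others, and the Cry/Per_KO-labelled libraries were the highest. Gsta4 was 20.8-fold lower (log2 fold change -4.38 ± 0.11 SE, adjusted p = 9.9e-15, edgeR quasi-likelihood test) in Per/Nr1d_KO than in the Cry/Per_KO-labelled libraries and 11.8-fold lower (-3.56 ± 0.12, adjusted p = 2.8e-13, edgeR) than in the Cry/Per/Nr1d_KO-labelled ones. Cry/Per_KO-labelled libraries were 1.77-fold higher (0.82 ± 0.077, adjusted p = 1.4e-07, edgeR) than the Cry/Per/Nr1d_KO-labelled ones. This last call was lost without replicate 1 of the Cry/Per/Nr1d_KO-labelled (0.78) or of the Cry/Per_KO-labelled libraries (0.77). It was also lost by DESeq2 at the study's adjusted p limit of 1e-22, and when the fold limit itself was tested. Relative to the medians of chromosome 9, the log2 fold changes of Gsta4 were -3.54, -3.09 and 0.45 in the same order.

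Gstm2 (chr3:107981702-107986420), of the mu class, was at 542 and 589 normalized counts in the Cry/Per/Nr1d_KO-labelled pair, 165 and 160.1 in the Cry/Per_KO-labelled pair and 643 and 539.7 in Per/Nr1d_KO. The Cry/Per_KO-labelled libraries were low, and the other pairs overlapped. Gstm2 was 3.47-fold lower (log2 fold change -1.80 ± 0.12 SE, adjusted p = 2.3e-09, edgeR quasi-likelihood test) in the Cry/Per_KO-labelled libraries than in the Cry/Per/Nr1d_KO-labelled ones and 3.61-fold higher (1.85 ± 0.12, adjusted p = 6.9e-10, edgeR) in Per/Nr1d_KO than in the Cry/Per_KO-labelled ones. Its neighbour Gstm5 (chr3:107895854-107898685) had another pattern, with 1378 and 1417 normalized counts in the Cry/Per/Nr1d_KO-labelled pair, 1402 and 1407 in the Cry/Per_KO-labelled pair and 2581 and 2587 in Per/Nr1d_KO. Only Per/Nr1d_KO stood out, at 1.85-fold higher (log2 fold change 0.89 ± 0.058 SE, adjusted p = 1.5e-09, edgeR quasi-likelihood test) than the Cry/Per/Nr1d_KO-labelled libraries and 1.84-fold higher (0.88 ± 0.058, adjusted p = 1.2e-09, edgeR) than the Cry/Per_KO-labelled ones. Gstm1, in the same cluster, was not called (-0.63, 0.12 and 0.74). The chromosome 3 medians were -0.65, 0.24 and 0.88, and relative to them Gstm2 was at -1.15, -0.18 and 0.97, and Gstm5 at 0.65, 0.65 and 0.00. In Gstm5, 13.9% of the exon bases overlap 4933431E20Rik on the other strand. Of the 50-base stretches of Gstm1, 18.9% occur in other genes, mostly Gstm2-ps1.

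Gstt1 (chr10:75783813-75798584), of the theta class, was at 1233 and 1153 normalized counts in the Cry/Per/Nr1d_KO-labelled pair, 912 and 847 in the Cry/Per_KO-labelled pair and 531 and 503 in Per/Nr1d_KO. Per/Nr1d_KO was the lowest and was 2.32-fold lower (log2 fold change -1.21 ± 0.079 SE, adjusted p = 1.6e-09, edgeR quasi-likelihood test) than the Cry/Per/Nr1d_KO-labelled libraries, while its difference from the Cry/Per_KO-labelled ones, -0.77 ± 0.081, did not pass the fold limit. It passed without replicate 2 of the latter (-0.82) and with the median of its chromosome subtracted (-0.87). Gsto1 (chr19:47854973-47864790), of the omega class, which also has thiol transferase activity, was at 14454 and 14038 normalized counts in the Cry/Per/Nr1d_KO-labelled pair, 7452 and 8149 in the Cry/Per_KO-labelled pair and 11484 and 11455 in Per/Nr1d_KO. The Cry/Per_KO-labelled libraries were 1.83-fold lower (log2 fold change -0.87 ± 0.048 SE, adjusted p = 3.9e-10, edgeR quasi-likelihood test) than the Cry/Per/Nr1d_KO-labelled ones, with Per/Nr1d_KO in between. The call was lost, at -0.81, without replicate 1 of the Cry/Per_KO-labelled libraries, and when the fold limit itself was tested. Gstp1, of the pi class, was at -0.20, 0.18 and 0.38, and its values are uncertain because 33.7% of its 50-base stretches also occur in its near copy Gstp2 and another gene.

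**Figure D2:**
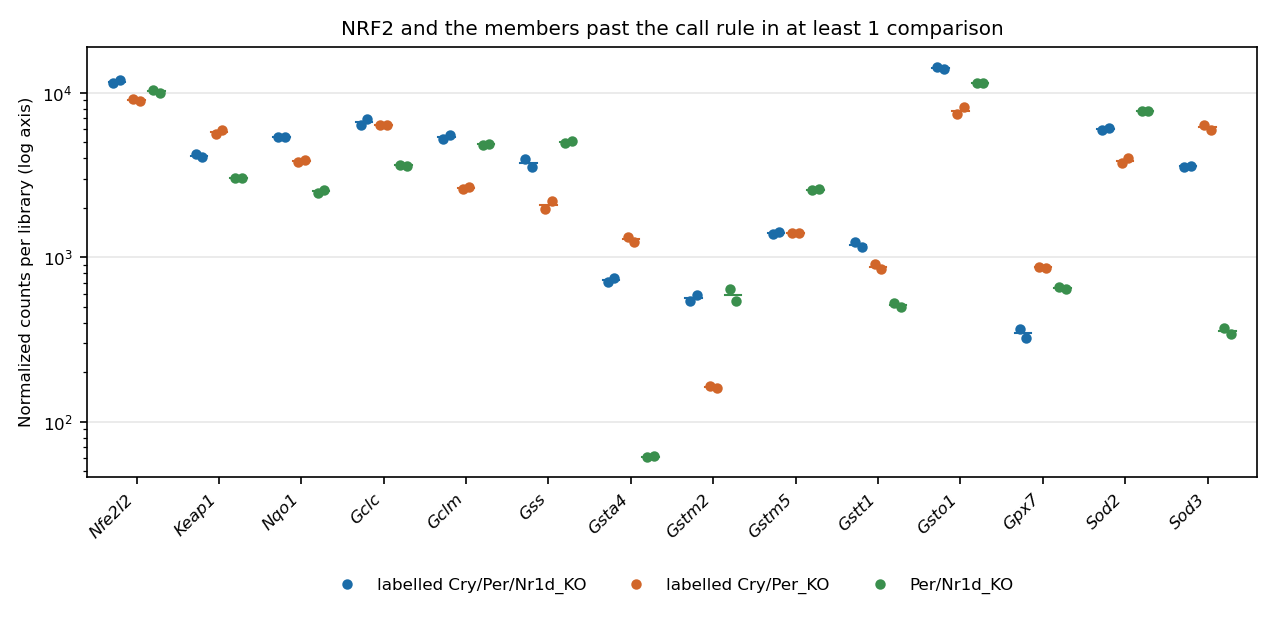
Normalized counts (vertical log axis) of Nfe2l2 and of the 13 members called in at least 1 comparison, 1 point per library and a short line at the mean of each pair. The points of a line lie close together beside the differences between lines, and Gsta4 and Sod3 are lowest in Per/Nr1d_KO, at 60.8 to 62.3 and 341 to 371.

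Several transferases below the expression limit differed between lines by their reads. The ratios that follow compare normalized reads summed over the 2 libraries of a line, and their 95% exact intervals cover counting error only, not the spread between libraries. Mgst1, a microsomal transferase that reduces lipid peroxides, was at 159 and 139.9 normalized counts in the Cry/Per/Nr1d_KO-labelled pair, 1.11 and 3.93 in the Cry/Per_KO-labelled pair and 6.34 and 4.73 in Per/Nr1d_KO. That is 305 reads against 5 and 11, so the Cry/Per/Nr1d_KO-labelled libraries were 57.7-fold higher than the Cry/Per_KO-labelled ones (interval 24.5 to 179) and 28.1-fold higher than Per/Nr1d_KO (15.5 to 57.0). Mgst2 was highest in Per/Nr1d_KO, at 17.8 and 20 normalized counts in the Cry/Per/Nr1d_KO-labelled pair, 51.2 and 40.3 in the Cry/Per_KO-labelled pair and 200.3 and 198 in Per/Nr1d_KO. This was 10.6-fold above the Cry/Per/Nr1d_KO-labelled libraries (7.60 to 15.2) and 4.38-fold above the Cry/Per_KO-labelled ones (3.47 to 5.59). Mgst2 lies on chromosome 3, whose medians were 0.24 and 0.88 in these comparisons. Mgst3, the third microsomal member and well expressed, was not called (-0.20, -0.52 and -0.32).

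Gstt2, next to Gstt1 on chromosome 10, had 69 reads in the Cry/Per/Nr1d_KO-labelled libraries, 4 in the Cry/Per_KO-labelled ones and 50 in Per/Nr1d_KO. The first pair was 16.3-fold above the second (6.09 to 61.6). Gsta3 had 10, 46 and 6 reads, and its 2 Cry/Per_KO-labelled libraries differed widely, at 11.1 and 35.3 normalized counts. Gpx3, the secreted glutathione peroxidase, had 11, 17 and 41 reads. Gsta2 had 1 read in all libraries together. Gsta1 had 0 reads in every library, which allows up to 3 in each, and 90.5% of its 50-base stretches occur in other genes, so its count is uncertain. With the limit lowered to a mean of 10 normalized counts, 5 of these 7 genes entered the test. Gsta3, Gpx3 and Mgst1 entered only through the line where each is high and Gstt2 through 2 lines, so no call is given for these 4. Mgst2, above 10 in every library, was called in all 3 comparisons at adjusted p of 0.00044, 2.7e-11 and 1.8e-09 by the edgeR quasi-likelihood test.

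Of the 4 members of the glutathione peroxidase family tested, only Gpx7 was called, in the first 2 comparisons. That is 1, 1 and 0 of 4, beside 16.8%, 20.7% and 29.0% of all genes. Gpx7 (chr4:108400217-108406713), an enzyme of the endoplasmic reticulum, was at 368 and 325 normalized counts in the Cry/Per/Nr1d_KO-labelled pair, 873 and 867 in the Cry/Per_KO-labelled pair and 659 and 642 in Per/Nr1d_KO. The Cry/Per/Nr1d_KO-labelled libraries were the lowest, with no overlap. Cry/Per_KO-labelled libraries were 2.50-fold higher (log2 fold change 1.32 ± 0.087 SE, adjusted p = 2.6e-09, edgeR quasi-likelihood test) than these, and Per/Nr1d_KO was 1.87-fold higher (0.90 ± 0.089, adjusted p = 2.1e-07, edgeR). The call in Per/Nr1d_KO was lost by DESeq2 at the study's adjusted p limit of 1e-22, and when the fold limit itself was tested. Its relative Gpx8 in the same compartment was at 0.31, 0.23 and -0.07, and Gpx1, the abundant cytosolic enzyme, at 0.14, -0.34 and -0.48. Gpx4, which protects membranes from lipid peroxides, was at -0.25, -0.30 and -0.04, with 34.7% of its 50-base stretches shared, mostly with Gpx4-ps2.

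The 3 superoxide dismutases had different patterns. Sod3 (chr5:52363804-52369738), the secreted enzyme, was at 3557 and 3605 normalized counts in the Cry/Per/Nr1d_KO-labelled pair, 6416 and 5971 in the Cry/Per_KO-labelled pair and 371 and 341 in Per/Nr1d_KO. Per/Nr1d_KO was far below both other pairs, 17.5-fold lower (log2 fold change -4.13 ± 0.067 SE, adjusted p = 6.1e-17, edgeR quasi-likelihood test) than the Cry/Per_KO-labelled libraries and 10.1-fold lower (-3.34 ± 0.068, adjusted p = 9e-16, edgeR) than the Cry/Per/Nr1d_KO-labelled ones. The Cry/Per_KO-labelled libraries were above the Cry/Per/Nr1d_KO-labelled ones by 0.79 ± 0.053, just inside the fold limit, and at 0.84 and called without replicate 2 of the Cry/Per_KO-labelled libraries. The chromosome 5 medians were 0.09, 0.17 and 0.08. Sod2 (chr17:13007839-13018119), the mitochondrial manganese enzyme, was at 5949.5 and 6087 normalized counts in the Cry/Per/Nr1d_KO-labelled pair, 3756 and 3993 in the Cry/Per_KO-labelled pair and 7769.8 and 7729 in Per/Nr1d_KO. It was 1.999-fold higher (log2 fold change 0.999 ± 0.047 SE, adjusted p = 2.1e-11, edgeR quasi-likelihood test) in Per/Nr1d_KO than in the Cry/Per_KO-labelled libraries, and its other fold changes (-0.63 and 0.36) were not called. Of the Sod2 50-base stretches, 21.0% occur in other genes. Sod1, the cytosolic copper-zinc enzyme, stayed within -0.14 and 0.01. Catalase (Cat), which breaks down hydrogen peroxide, was at 0.55 ± 0.049 and 0.52 ± 0.049 in Per/Nr1d_KO against the other pairs and was not called. Abcc1, which exports glutathione conjugates, ranged from -0.01 to 0.15.

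By line, the Cry/Per/Nr1d_KO-labelled libraries had the highest mean of the 3 for 13 of the 35 members tested, Per/Nr1d_KO for 12 and the Cry/Per_KO-labelled ones for 10. The lowest mean was in the Cry/Per_KO-labelled libraries for 14, in Per/Nr1d_KO for 14 and in the Cry/Per/Nr1d_KO-labelled ones for 7. Over all genes tested the Cry/Per/Nr1d_KO-labelled libraries were highest for 26.8% and lowest for 27.6%, the Cry/Per_KO-labelled ones for 34.8% and 37.2%, and Per/Nr1d_KO for 38.3% and 35.2%.

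Of the 35 members tested 9 sit on chromosomes 3 and 9, whose medians in Per/Nr1d_KO against the Cry/Per_KO-labelled libraries were 0.88 and -0.84, and their fold changes were set beside these medians. The 4 members tested on chromosome 3 (Gclm, Gstm1, Gstm2 and Gstm5) were all above 0 in Per/Nr1d_KO against the Cry/Per_KO-labelled libraries, and the 5 on chromosome 9 (Keap1, Gclc, Me1, Gsta4 and Gpx1) were all below 0 in both Per/Nr1d_KO comparisons. Relative to the chromosome median in Per/Nr1d_KO against the Cry/Per_KO-labelled libraries, 2 of the 4 were above it and 1 below, with Gstm5 being itself the median gene, and 3 of the 5 were above and 2 below. With the chromosome median subtracted, Keap1 (-0.08), Gclc, Gclm and Gstm5 were no longer called in that comparison and Gstt1 (-0.87) was. Gsta4, Gstm2, Gss, Sod2 and Sod3 were called there with and without the subtraction. In Cry/Per_KO-labelled against Cry/Per/Nr1d_KO-labelled libraries the subtraction ended the calls of Gclm (-0.38), Gss (-0.66) and Gsta4 (0.45), and in Per/Nr1d_KO against the latter those of Gclc (-0.42) and Gstm5 (0.65). The part of the chromosome-wide shifts in the members' values was not tested further.

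**Figure D3:**
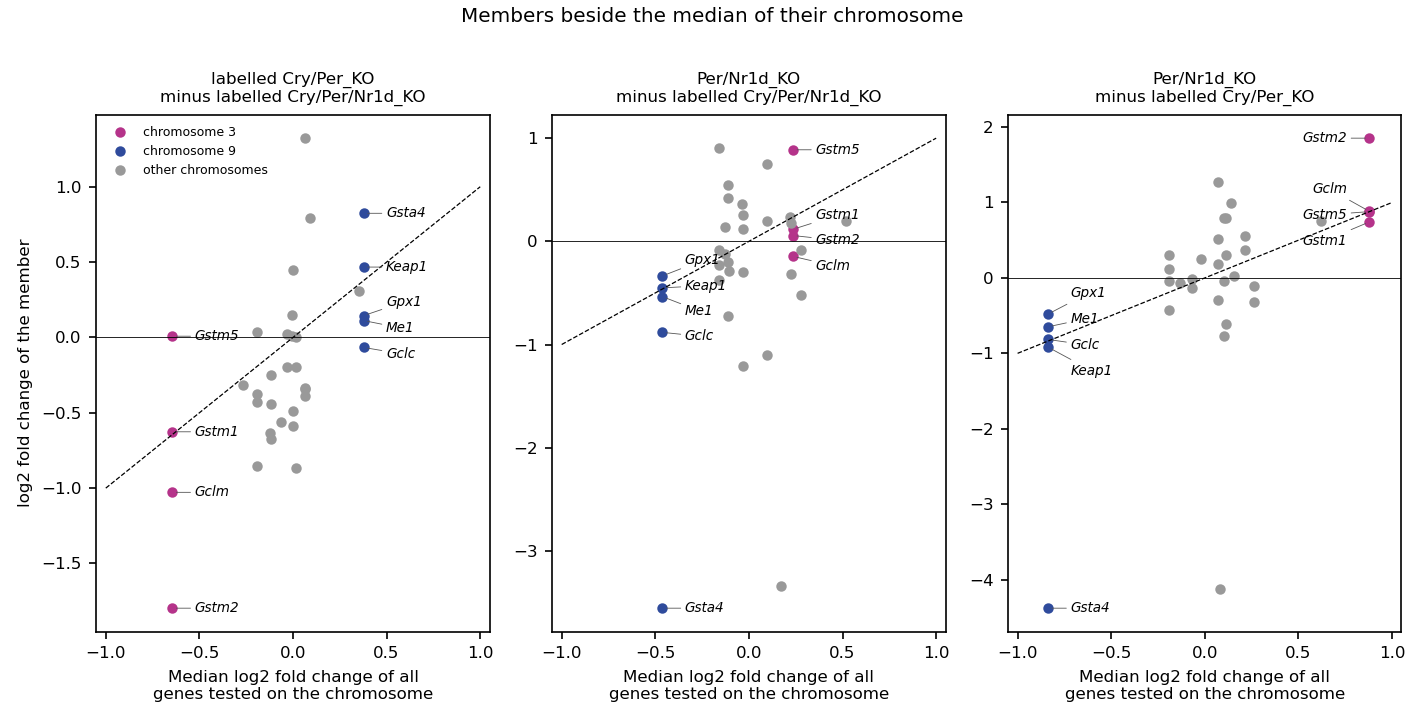
Log2 fold change of each member tested (vertical axis) against the median log2 fold change of all genes tested on its chromosome (horizontal axis), for the 3 comparisons. The dashed line marks equal values, and chromosome 3 and 9 members are named. In the right panel Gclm, Gstm5, Gclc and Keap1 lie close to the line, while Gsta4 and Gstm2 lie away from it.

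A second list of 69 other genes of the pathway (partners of NRF2, further NRF2 targets, further glutathione genes and further thioredoxin genes) was read in the same way, and 55 were tested. In Cry/Per_KO-labelled libraries against the Cry/Per/Nr1d_KO-labelled ones 7 were called, 2 higher and 5 lower (12.7%, against 16.8% of all genes). In Per/Nr1d_KO against the Cry/Per/Nr1d_KO-labelled libraries 10 were called, 7 higher and 3 lower (18.2%, against 20.7%), and against the Cry/Per_KO-labelled ones 14 were called, 10 higher and 4 lower (25.5%, against 29.0%). Of the 17 further NRF2 targets tested, 2, 4 and 8 were called in the 3 comparisons (11.8%, 23.5% and 47.1%). Among the 16 further glutathione genes tested these were 4, 4 and 5 (25%, 25% and 31.2%). Of the 12 further thioredoxin genes, 1, 2 and 1 were called (8.33%, 16.7% and 8.33%). None of the 10 partners and turnover factors, which include Bach1, Mafg, Cul3 and Sqstm1, was called in any comparison by edgeR or DESeq2. The shares of all genes were 16.8%, 20.7% and 29.0%. An unadjusted p below 0.05 was reached by 8, 6 and 7 of the 10, beside 77.9%, 77.3% and 82.8% of all genes.

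The largest differences among the called genes of this second list were as follows. Cbr3, a carbonyl reductase, was at 416 and 434 normalized counts in the Cry/Per/Nr1d_KO-labelled pair, 47.9 and 59.9 in the Cry/Per_KO-labelled pair and 257 and 239.9 in Per/Nr1d_KO, and was 7.82-fold lower (log2 fold change -2.97 ± 0.14 SE, adjusted p = 6.8e-11, edgeR quasi-likelihood test) in the Cry/Per_KO-labelled libraries than in the Cry/Per/Nr1d_KO-labelled ones. Ggt7, of the gamma-glutamyltransferase family, was at 122 and 111 normalized counts in the Cry/Per/Nr1d_KO-labelled pair, 28.9 and 31.4 in the Cry/Per_KO-labelled pair and 339.7 and 351 in Per/Nr1d_KO. With means of 116.3 and 30.2 in the other lines, it passed the limit of 100 only through Per/Nr1d_KO, where it is high. No p-value is therefore given for its difference from Per/Nr1d_KO, although the counts of called genes above include it. Ggt7 was 3.85-fold lower (-1.94 ± 0.19, adjusted p = 2.2e-07, edgeR) in the Cry/Per_KO-labelled libraries than in the Cry/Per/Nr1d_KO-labelled ones. It was 11.4-fold higher (3.51 ± 0.16) in Per/Nr1d_KO than in the Cry/Per_KO-labelled ones. Abcc4, an exporter of organic anions, was 2.20-fold lower (-1.13 ± 0.062, adjusted p = 3.4e-10, edgeR) and 4.78-fold higher (2.26 ± 0.061, adjusted p = 2.3e-14, edgeR) in the same pair of comparisons. Ggt7 and Abcc4 were thus lowest in the Cry/Per_KO-labelled libraries, as were Gclm and Gss.

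Txnip, which encodes an inhibitor of thioredoxin, had the largest fold change among the called genes of this second list. It was at 1205 and 1228 normalized counts in the Cry/Per/Nr1d_KO-labelled pair, 1024 and 1009 in the Cry/Per_KO-labelled pair and 18696 and 19024 in Per/Nr1d_KO. Per/Nr1d_KO was 15.5-fold higher (log2 fold change 3.96 ± 0.050 SE, adjusted p = 4.7e-18, edgeR quasi-likelihood test) than the Cry/Per/Nr1d_KO-labelled libraries and 18.6-fold higher (4.21 ± 0.051, adjusted p = 2.7e-18, edgeR) than the Cry/Per_KO-labelled ones. Txnip lies on chromosome 3, whose medians were 0.24 and 0.88, and 19.4% of its exon bases overlap Gm15441 on the other strand. Ephx1, microsomal epoxide hydrolase, was 4.17-fold higher (2.06 ± 0.045, adjusted p = 2.4e-15, edgeR) in Per/Nr1d_KO than in the Cry/Per/Nr1d_KO-labelled libraries. Oplah, which returns glutamate from 5-oxoproline in glutathione turnover, was 4.48-fold lower (-2.16 ± 0.12, adjusted p = 1.7e-10, edgeR) in the same comparison, at 122 and 117 normalized counts in Per/Nr1d_KO and 571 and 492 in the other pair.

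**Figure D4:**
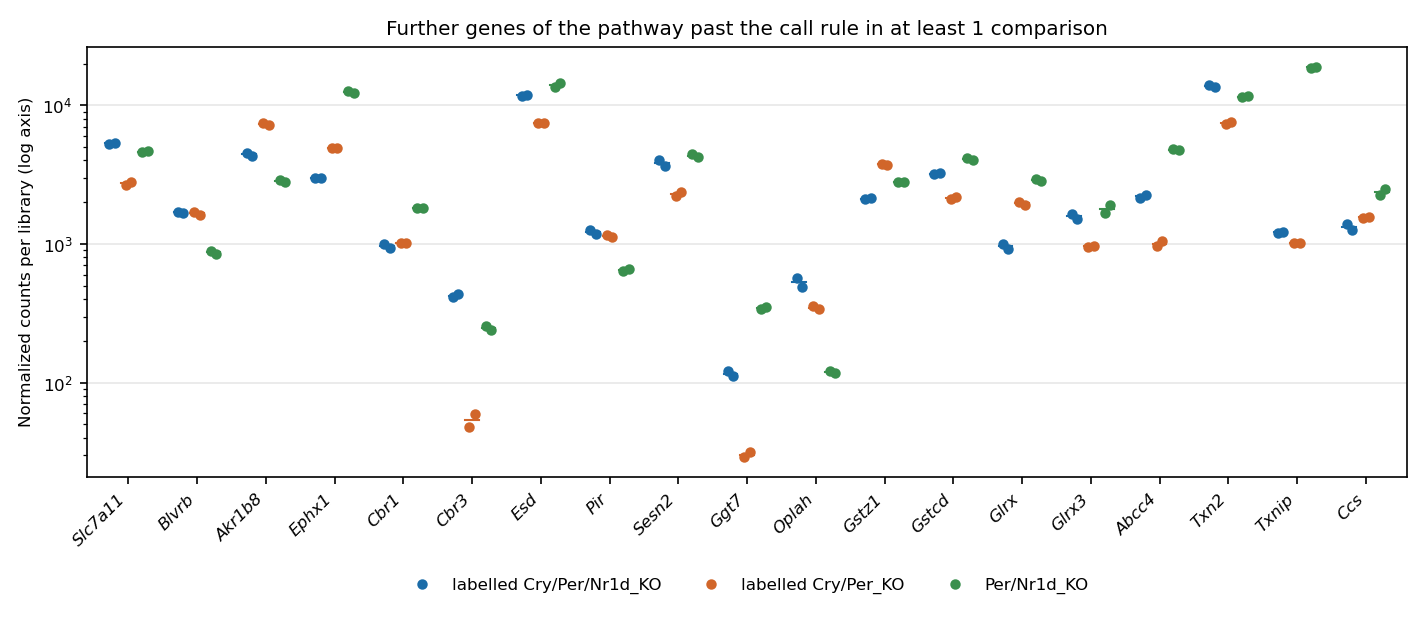
Normalized counts (vertical log axis) of the genes of the second list that were called in at least 1 comparison, 1 point per library and a short line at the mean of each pair. Txnip is highest in both Per/Nr1d_KO libraries, at 18696 and 19024, and Cbr3 and Ggt7 are lowest in the Cry/Per_KO-labelled libraries.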

How the data were processed

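The study sequenced poly-A RNA from 3 MEF lines as stranded, single-end libraries with 50-base reads. The authors used STAR for alignment (mm10) and featureCounts for counting, and deposited raw read counts per Entrez gene for each of 6 libraries, which are the values used here. How reads with several matches and strand were handled is not given in the sources used here. The deposited tables of the authors' own DESeq2 comparisons hold fold changes and p-values and were not used. The submitters' processing notes name DESeq2 1.22.2.

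Counts were TMM-normalized and tested with edgeR 4.0.16 (R 4.3.3, limma 3.58.1) by the quasi-likelihood test in 1 fit over 6 libraries and 3 groups, on the 11934 genes that averaged 100 or more normalized counts. Normalized counts are scaled to the mean effective library size. P-values were adjusted over all genes tested by the Benjamini-Hochberg method. Fold and expression limits follow the study, and the p limit of 0.05 is looser than the study's. Standard errors are the log2 fold change divided by the square root of the F statistic. The test was checked on simulated data for the first comparison. Libraries with the same replicate number did not deviate together, so no pairing was used. The 2 libraries of each line differed by more than counting noise. P-values measure the spread between 2 RNA preparations of 1 line, not between lines. The members and both gene lists were chosen with earlier results of these data known. Every member is accounted for, with per-library values for Nfe2l2, Keap1 and each member called, and the second list is named by its 3 largest called differences per comparison. Gene positions and promoter sequences come from RefSeq (GRCm38.p6, the mm10 assembly). Exon overlaps, shared 50-base stretches and exon lengths, which cover all annotated isoforms, come from GENCODE vM21. Alternatives were DESeq2 1.42.0, other size factors, filters, fold rules, a replicate block, fits of 2 groups, chromosome medians, exchanged labels and leaving out each library.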

Additional observations from a re-analysis of the deposited data

How the results depend on the processing

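The counts of members called (6 for Cry/Per_KO-labelled against Cry/Per/Nr1d_KO-labelled libraries, 7 for Per/Nr1d_KO against the latter, 9 for Per/Nr1d_KO against the former, with 2006, 2468 and 3457 genes in all) moved with several choices. Without a fold limit they were 29, 31 and 30, with 9118, 9042 and 9793 genes in all. When the fold limit itself was tested (glmTreat) the first 2 fell to 3, without Gss, Gsta4 and Gsto1, and 4, without Gclc, Gstm5 and Gpx7, and the third lost Gclc, Gclm and Gstm5, with 1411, 2032 and 2841 genes in all. Without an expression filter 10, 10 and 13 of 41 members were called in the 3 comparisons. Of the 20375 genes then tested, 3808, 4576 and 5590 were called. With the mean lowered to 10 normalized counts, again 10, 10 and 13 members were called, of 40. Of the 14770 genes then tested, 3311, 3912 and 4996 were called. Some of the added members entered only through the line where they are high. DESeq2 at the study's adjusted p limit of 1e-22 called 1149 genes in the first comparison, against 2006, and ended the calls of Gsta4 in the first and Gpx7 in the second. With chromosome medians subtracted, the first comparison had 3 members called, without Gclm, Gss and Gsta4, the second lost Gclc and Gstm5, and in the third Gclc (0.0215) and Gstm5 (0) no longer lay on their former side of 0, by the construction of that subtraction, with 1640, 2328 and 2766 genes in all. With the labels exchanged, as Arntl and Cry1 would have them, the first comparison has 4 members higher and 2 lower, and the second has 9.

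Leaving out each library in turn moved some members across the fold limit, with a lone library assumed to vary like the rest. Without replicate 1 of the Cry/Per_KO-labelled libraries, Gss (-0.77), Gsta4 (0.77) and Gsto1 (-0.81) no longer passed it in the first comparison. Gss (-0.78) and Gsta4 (0.78) also fell inside it without replicate 1 of the Cry/Per/Nr1d_KO-labelled ones. Without replicate 2 of the Cry/Per_KO-labelled libraries, Sod3 (0.84) passed it in the first comparison. In the third comparison Gsr (0.81), Txnrd1 (0.82) and Gstt1 (-0.82) then passed it too. Same-numbered libraries had correlated deviations of -0.211, -0.102 and -0.024, so the numbers do not pair them. With the replicate number as a block the members called were 6, 7 and 9 and the genes called 2002, 2468 and 3457, and with the numbers of 1 line crossed, a setting chosen after seeing the data, 2003, 2469 and 3460. With 2 libraries per line, differences within the fold limit rest on few replicates.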
